A study of Homo sapiens with 9 samples.

Results

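Immediate early genes are switched on without new protein synthesis when a signal reaches the nucleus, and the mRNA of most of them is short-lived. The 10 genes described here are immediate early genes outside the AP-1 family, chosen by name together with their regulator SRF, and were found by symbol among the 26475 genes of the count table. The choice was made with earlier results of these data known. The 10 are the zinc finger factors EGR1, EGR2 and EGR3, the orphan nuclear receptors NR4A1, NR4A2 and NR4A3, the short nuclear proteins IER2 and IER5, the transcription factor SRF, and ARC, which is best known as a regulator of synapses in neurons. All 10 were in the table and all 10 passed the filter on low counts, among 16417 genes tested. SRF binds the CArG box and, with the ELK factors, carries the signal of the ERK pathway to EGR1 and similar genes. ERK signaling is driven by mutant BRAF in many melanomas.

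A375 is an established human melanoma cell line with a BRAF mutation, and TP-472 is a chemical probe that binds the bromodomains of BRD9 and BRD7. The cells received TP-472 at 5 or 10 µM, or the vehicle DMSO alone, for 24 h, and mRNA was profiled in 3 libraries per group, 9 in all. The 3 groups share the cell line and the time, and the DMSO libraries serve as control for both doses. The series' design text calls the libraries biological replicates and does not say whether they came from separate cultures. With 1 cell line and 1 time point, the first hours after TP-472 addition, when these genes classically respond, were not analysed here. The sources differ on how mRNA was isolated, by oligo-dT in one and by removal of ribosomal RNA in the other, and which applies could not be settled. In bulk RNA, more cells with a transcript and more transcript per cell cannot be told apart.

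The libraries held 42483091 to 51298130 expected counts each, and levels are given as CPM, the share of a library's counts scaled to a common total, with TMM, a correction for differences in RNA composition. A floor of 3 counts in a library corresponds to 0.0577 to 0.0709 CPM. Between 8.20% and 19.9% of the counts fell on ribosomal RNA genes. Of the melanoma markers, SOX10 stood at 404.2 to 425.5 CPM in DMSO and MITF at 29.9 to 33.3 CPM, whereas the pigment genes TYR and DCT were at 0 in every DMSO library. The summed CPM of the 8 melanoma markers ranged over 497.7 to 521.3 in DMSO, 495.8 to 504.0 with 5 µM and 441.6 to 512.5 with 10 µM, and the 7 markers of immune, endothelial and epithelial cells summed to at most 12.9 CPM in any library. The library of 10 µM replicate 1 stood apart. Against the mean of the other 10 µM libraries, its median log2 difference was 0.55 over the 1400 genes with transcripts up to 1500 bases and -0.42 over the 3575 genes with transcripts over 5000 bases, while in DMSO and 5 µM libraries no such median exceeded 0.06 in size.

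The sequences before the transcription starts are shown first, because the members differ in the motifs they carry. RefSeq windows (GRCh38.p14) were found for 7 of the 10 genes, 11 windows in all, and those of EGR3, NR4A2 and ARC were not in the table used. In the 250 bases before each start, both strands were searched for the CArG box bound by SRF, for TGACG, the core of the cyclic AMP response element (CRE) bound by CREB and ATF factors, and for GCGNGGGCG, the consensus of the EGR factors themselves. The search allowed overlaps between motifs. Of 35116 windows of the same length across all genes, 1.16% held a CArG box, 21.2% held TGACG and 8.41% held the EGR consensus. The windows printed are those with more than 1 match to the CArG box or TGACG, written 5′ to 3′ on the strand of the gene, with CArG boxes and TGACG (or its reverse complement CGTCA) in capitals. They are chr5:138465229-138465478 on the plus strand for EGR1, chr10:62816367-62816616 on the minus strand for EGR2, chr9:99821635-99821854 on the plus strand for NR4A3 and chr6:43171019-43171268 on the plus strand for SRF. The NR4A3 window is cut to 220 bases, where an annotated exon begins.
EGR1: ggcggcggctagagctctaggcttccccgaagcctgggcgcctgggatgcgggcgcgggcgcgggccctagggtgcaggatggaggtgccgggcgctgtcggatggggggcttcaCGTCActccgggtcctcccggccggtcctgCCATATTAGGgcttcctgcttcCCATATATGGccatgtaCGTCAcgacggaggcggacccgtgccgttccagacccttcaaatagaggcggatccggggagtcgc
EGR2: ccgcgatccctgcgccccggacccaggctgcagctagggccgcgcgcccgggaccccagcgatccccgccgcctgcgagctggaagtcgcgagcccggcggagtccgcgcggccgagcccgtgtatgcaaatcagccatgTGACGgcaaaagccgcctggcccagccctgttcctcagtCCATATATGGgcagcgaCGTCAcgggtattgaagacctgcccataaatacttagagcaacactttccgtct
NR4A3: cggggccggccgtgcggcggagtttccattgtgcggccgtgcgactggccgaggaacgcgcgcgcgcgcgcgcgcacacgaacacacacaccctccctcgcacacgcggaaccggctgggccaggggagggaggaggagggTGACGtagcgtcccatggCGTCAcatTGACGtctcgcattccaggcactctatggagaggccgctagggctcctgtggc
SRF: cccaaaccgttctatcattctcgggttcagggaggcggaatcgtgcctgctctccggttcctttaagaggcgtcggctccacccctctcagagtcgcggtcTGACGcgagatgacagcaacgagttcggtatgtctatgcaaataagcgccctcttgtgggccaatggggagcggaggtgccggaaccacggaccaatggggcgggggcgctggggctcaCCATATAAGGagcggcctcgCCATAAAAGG

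EGR1 carries 2 CArG boxes, CCATATTAGG and CCATATATGG, which end 96 and 74 bases before the start, between 2 TGACG matches. EGR2 carries 1 CArG box, the same CCATATATGG, 62 bases before the start and also between 2 TGACG matches. NR4A3 has no CArG box in its window and 4 TGACG matches, of which 3 lie in the part printed. SRF carries 2 CArG boxes, CCATATAAGG and CCATAAAAGG, within 30 bases of its start, and 1 TGACG match. IER2 has a single TGACG match, and the windows of IER5 and NR4A1 hold neither motif, nor do the windows before the other starts of EGR2 and SRF. The EGR consensus occurs once in the windows of EGR1 and of SRF. A match is a run of letters and not a measured binding site.

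**Figure D1:**
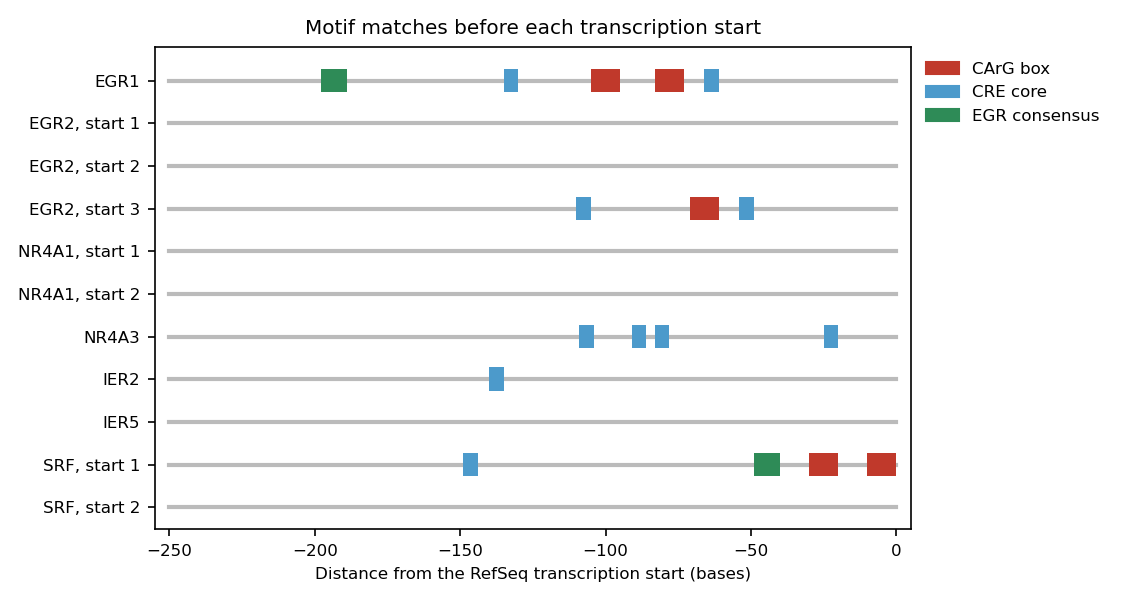
Motif matches in the 250 bases before each RefSeq transcription start of 7 genes. The horizontal axis is the distance from the start in bases, each grey line is a window, and boxes are CArG boxes, CRE cores (TGACG) and EGR consensus matches on either strand. EGR1 and SRF hold 2 CArG boxes each, EGR2 holds 1, and NR4A3 holds 4 CRE cores.

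A gene was called if it differed 1.5-fold or more with an adjusted p under 0.05, in the quasi-likelihood test of edgeR, with p-values adjusted by Benjamini-Hochberg over all genes tested. At 5 µM against DMSO, 4 of the 10 genes were upregulated (EGR1, NR4A1, NR4A3 and ARC), where 2.14% of all genes tested were. At 10 µM against DMSO, 6 of 10 were upregulated, with EGR2 and IER5 added, against 8.57% of all genes. At 10 µM against 5 µM, EGR1, NR4A1, NR4A3 and ARC were again called, 4 of 10 against 1.42% of all genes, and these 4 were higher in all 3 comparisons, as were 0.408% of all genes. By edgeR or by DESeq2, 0 members were called lower in any comparison, where edgeR called 2.72% of all genes lower at 5 µM, 10.5% at 10 µM and 2.59% at 10 against 5 µM. At an unadjusted p under 0.05, no member was lower against DMSO and 1, NR4A2, was lower at 10 µM than at 5 µM. The share of all genes at that limit was not counted. On the adjusted p alone, with no fold limit, 5, 7 and 6 of the 10 genes were higher at 5 µM, at 10 µM and at 10 against 5 µM, against 4.4%, 16.4% and 2.87% of all genes. All libraries of the higher dose stood above all libraries of the lower in 8 of 10 genes at 5 µM (23.7% of all genes), 7 at 10 µM (23.4%) and 6 at 10 against 5 µM (12.1%). All stood below in 0 genes at 5 µM (25.0% of all genes), 0 at 10 µM (26.0%) and 1 at 10 against 5 µM (16.2%). The median log2 fold change of the 10 genes was 0.92 at 5 µM and 1.45 at 10 µM, against 0.01 over all genes tested at either dose. Because the 10 genes were chosen with earlier results of these data known, these shares and medians are a description only.

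**Figure D2:**
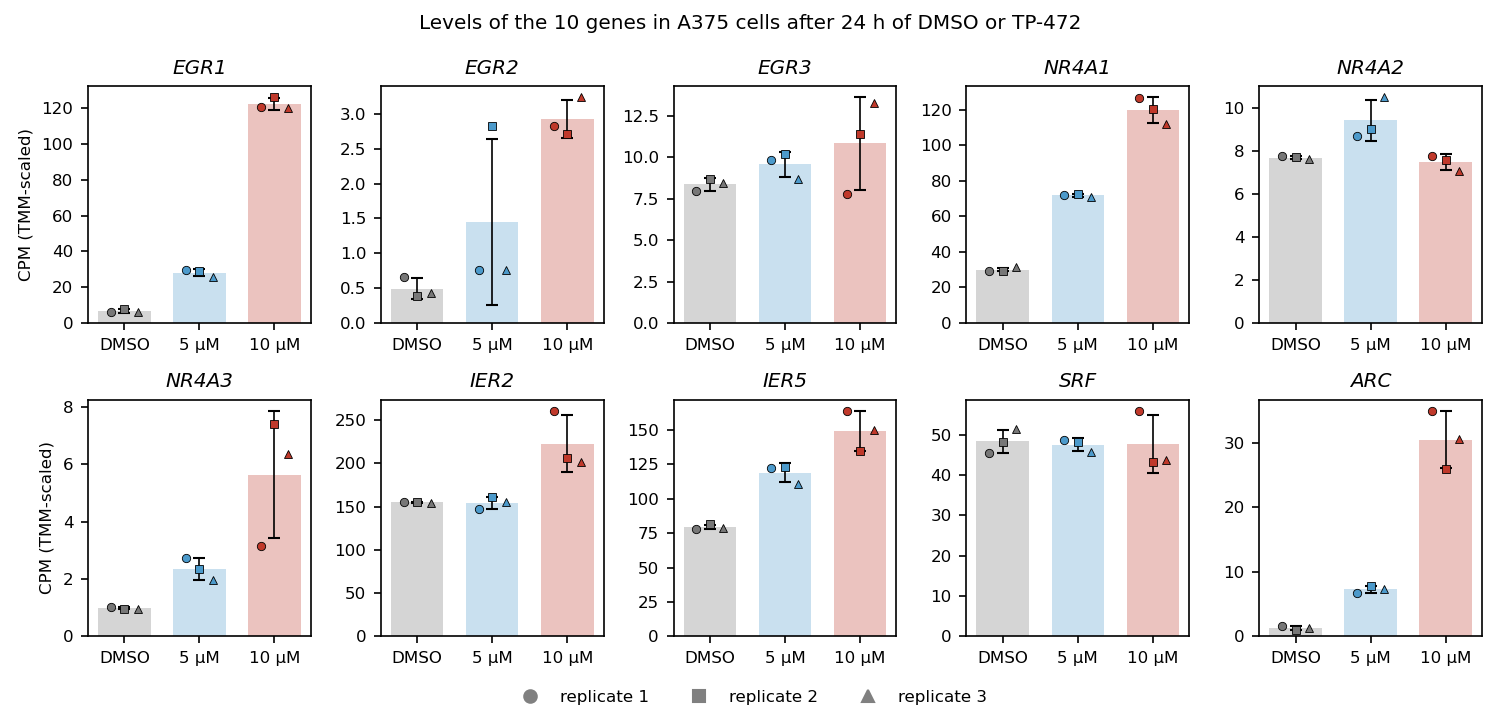
Level of each gene in CPM (vertical axis from 0, scale differs by panel) in DMSO, 5 µM and 10 µM TP-472. Points are single libraries marked by replicate, bars are means and error bars are SD (n = 3). EGR1, NR4A1 and ARC climb with each dose without overlap between groups, whereas SRF, NR4A2 and EGR3 were not called at either dose.

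The EGR genes encode zinc finger factors that bind GC-rich sites and relay growth and stress signals. EGR1 lies on chromosome 5 (chr5:138465490-138469315, GRCh38, GENCODE release 29). It was expressed at 6.14, 7.76 and 5.91 CPM in the 3 DMSO libraries, at 29.5, 29 and 25.7 CPM at 5 µM, and at 120.7, 126.2 and 120.1 CPM at 10 µM. Every library of a higher dose stood above every library of the dose below. EGR1 rose 4.25-fold at 5 µM (log2 fold change 2.09, standard error 0.11, edgeR adjusted p = 1.08e-05) and 18.5-fold at 10 µM (log2 fold change 4.21, standard error 0.12, edgeR adjusted p = 3.87e-08). From 5 to 10 µM it rose a further 4.36-fold (edgeR adjusted p = 1.44e-05). At 10 µM the rise of EGR1 ranked 62nd among the 16417 genes.

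EGR2 (chr10:62811996-62919900), known for its part in the myelination program of Schwann cells, had low counts. It stood at 0.664, 0.391 and 0.425 CPM in DMSO, from 18 to 33 counts a library. The 10 µM libraries held 2.83, 2.71 and 3.24 CPM, all above DMSO, and EGR2 rose 5.89-fold (log2 fold change 2.56, standard error 0.53, edgeR adjusted p = 0.00452). At 5 µM the libraries did not agree, with 0.767 and 0.759 CPM in replicates 1 and 3 and 2.83 CPM in replicate 2, which lies within the range of the 10 µM group. The log2 fold change at 5 µM was 1.55 (standard error 0.52, edgeR adjusted p = 0.0938) and 0.62 without 5 µM replicate 2 (adjusted p = 0.366). Without that library the difference between 10 and 5 µM, 1.01 with it (edgeR adjusted p = 0.237), became 1.93 and was called (adjusted p = 0.0222), and without 10 µM replicate 1 the change at 5 µM was called (adjusted p = 0.0199). DESeq2 also called EGR2 at 5 µM (adjusted p = 0.0273), as did edgeR fitted to those groups alone (adjusted p = 0.025).

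EGR3 (chr8:22687659-22693302) encodes a close relative of EGR1. It was expressed at 7.95, 8.70 and 8.44 CPM in DMSO, 9.81, 10.2 and 8.70 CPM at 5 µM and 7.81, 11.4 and 13.3 CPM at 10 µM. The 10 µM libraries ranged from below to above all DMSO libraries. EGR3 was not called at 5 µM (log2 fold change 0.19, 95% confidence interval -0.20 to 0.59, edgeR adjusted p = 0.583) or at 10 µM (0.37, interval -0.02 to 0.77, adjusted p = 0.131). Its lowest 10 µM value came from replicate 1, and without that library its log2 fold change was 0.56 (edgeR adjusted p = 0.000984), just under the fold limit. The EGR3 transcript has 4336 bases, and 3.38% of the exonic length of the gene overlaps a gene on the opposite strand.

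The change within the EGR family was compared per length, as CPM per kilobase of the longest protein-coding transcript. Which transcripts were expressed was not measured. Shares and orders between genes, here and below, therefore depend on the length chosen. EGR1 made up 49.9% ± 3.27 of the summed level of the 3 EGR genes in DMSO, 77.0% ± 2.83 at 5 µM and 91.8% ± 1.55 at 10 µM (SD, n = 3 each). EGR3 made up 46.1% ± 2.75 in DMSO and 5.87% ± 1.43 at 10 µM. In DMSO the per-kilobase levels of EGR1 and EGR3 overlapped, and at 10 µM the log2 ratio of EGR1 to EGR3 was 4.0 ± 0.39 against 0.12 ± 0.17 in DMSO (SD, n = 3 each). This difference in ratio, 3.88, showed no overlap between libraries and had an exact permutation p of 0.1 (two-sided), the smallest that 3 against 3 libraries can give.

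NR4A receptors bind DNA without a known natural ligand, so their activity is set largely by how much of them is made. NR4A1 (chr12:52022832-52059507), also known as NUR77, was expressed at 29.4, 29.4 and 31.3 CPM in DMSO. It stood at 71.8, 72.7 and 70.9 CPM at 5 µM and at 126.5, 120.3 and 112.0 CPM at 10 µM. The 3 groups did not overlap, and the libraries within each group were close together. NR4A1 rose 2.39-fold at 5 µM (log2 fold change 1.26, standard error 0.07, edgeR adjusted p = 1.5e-05) and 3.98-fold at 10 µM (log2 fold change 1.99, standard error 0.07, edgeR adjusted p = 1.61e-07). From 5 to 10 µM it rose a further 1.67-fold (edgeR adjusted p = 0.000375). A gene on the opposite strand overlaps 10.3% of its exonic length, and no source used here says whether the counting used strand.

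NR4A2 (chr2:156324432-156342348), a factor needed for dopaminergic neurons, was expressed at 7.75, 7.73 and 7.61 CPM in DMSO, 8.72, 9.04 and 10.5 CPM at 5 µM and 7.79, 7.57 and 7.09 CPM at 10 µM. Its highest values were at the lower dose, and the 10 µM libraries overlapped DMSO. The log2 fold change was 0.29 at 5 µM (95% confidence interval 0.03 to 0.55, edgeR adjusted p = 0.15) and -0.04 at 10 µM (interval -0.30 to 0.22, adjusted p = 0.823). Every 10 µM library was below every 5 µM library, a log2 difference of -0.33 (edgeR adjusted p = 0.11).

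NR4A3 (chr9:99821855-99866891) had 40 to 50 counts in each DMSO library, or 1.01, 0.967 and 0.945 CPM. It stood at 2.72, 2.34 and 1.95 CPM at 5 µM and at 3.14, 7.40 and 6.36 CPM at 10 µM, with no overlap between the groups. NR4A3 rose 5.78-fold at 10 µM (log2 fold change 2.53, standard error 0.32, edgeR adjusted p = 0.000255). The rise at 5 µM was 2.40-fold (log2 fold change 1.26, standard error 0.31, edgeR adjusted p = 0.0321) and that from 5 to 10 µM was 2.41-fold (adjusted p = 0.0303). These 2 calls were lost when any 1 of several libraries was left out. For 5 µM against DMSO these were each DMSO and each 5 µM library (edgeR adjusted p 0.061 to 0.12), and for 10 against 5 µM they were every library except 10 µM replicate 1 (adjusted p 0.0589 to 0.122). The call at 10 against 5 µM was also lost with only those groups fitted (edgeR adjusted p = 0.111). The low 10 µM value is that of replicate 1, in which genes of over 5000 bases read low. The NR4A3 transcript has 5706 bases, and the part of this library's length trend in its value was not tested. Without that library the log2 fold change at 10 µM was 2.82.

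Per kilobase, NR4A1 made up 78.2% ± 0.784 of the summed NR4A level in DMSO, 86.8% ± 0.887 at 5 µM and 91.5% ± 1.11 at 10 µM (SD, n = 3 each), while NR4A2 made up 20.3% ± 0.707 in DMSO and 5.79% ± 0.0264 at 10 µM. The log2 ratio of NR4A1 to NR4A2 was 2.03 higher at 10 µM than in DMSO, with no overlap between libraries (exact permutation p = 0.1, two-sided, the smallest possible here). The ratio of NR4A1 to NR4A3 overlapped between DMSO and 10 µM (exact permutation p = 0.4, two-sided).

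**Figure D3:**
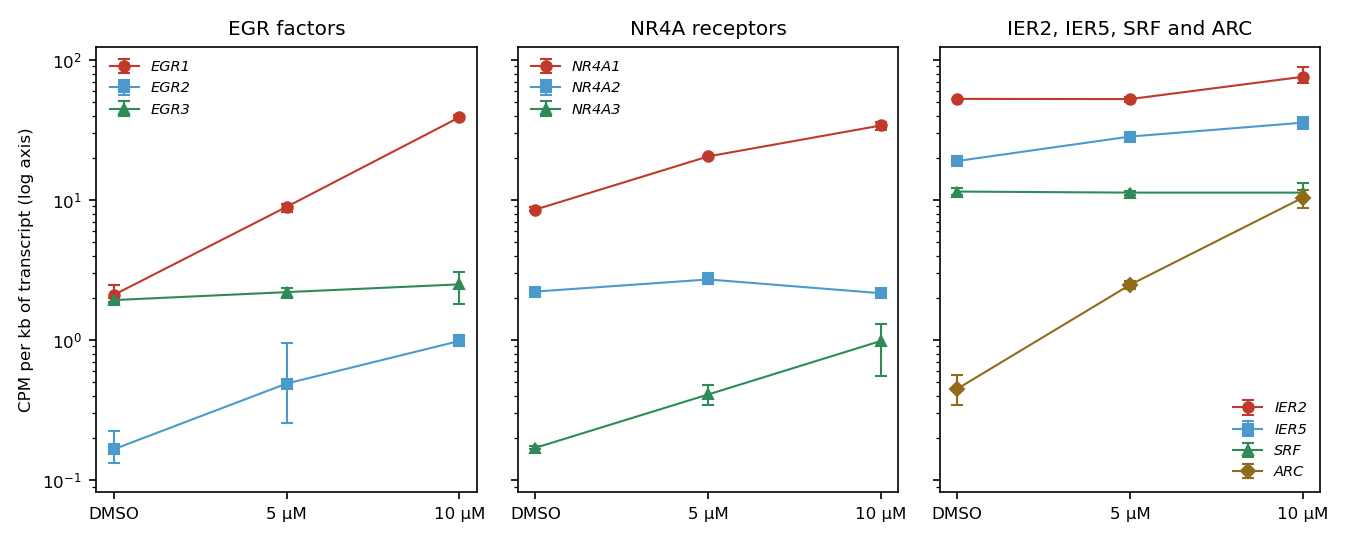
Level per kilobase of transcript (CPM per kb, log axis) in DMSO, 5 µM and 10 µM TP-472. Markers are means and bars run from the lowest to the highest of 3 libraries. EGR1 and EGR3 start together in DMSO and part with dose, NR4A1 rises while NR4A2 is not called, and ARC climbs to the level of SRF.

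IER2 and IER5 encode short proteins, and IER5 is known to act on the heat shock factor HSF1. IER2 (chr19:13150415-13154908) had the highest level per kilobase of the 10 genes in every group. It was expressed at 155.2, 155.3 and 153.9 CPM in DMSO, 147.2, 160.6 and 155.0 CPM at 5 µM and 260.7, 206.7 and 201.1 CPM at 10 µM. The 5 µM libraries lay on both sides of DMSO, whereas all 10 µM libraries stood above it. At 10 µM IER2 was 1.44-fold higher (log2 fold change 0.53, 95% confidence interval 0.31 to 0.75, edgeR adjusted p = 0.00271), which passes the p limit and misses the fold limit. It was called without 10 µM replicate 3 (log2 fold change 0.59), and without 10 µM replicate 1, the library with the highest value, its log2 fold change was 0.39. A gene on the opposite strand overlaps 30.8% of its exonic length.

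IER5 (chr1:181088712-181092899) was expressed at 78.4, 81.5 and 78.9 CPM in DMSO, 122.3, 123.4 and 110.9 CPM at 5 µM and 163.6, 134.4 and 150.1 CPM at 10 µM. The 3 groups were in order of dose without overlap. IER5 rose 1.88-fold at 10 µM (log2 fold change 0.91, standard error 0.09, edgeR adjusted p = 4.38e-05). At 5 µM it was 1.49-fold higher (log2 fold change 0.58, edgeR adjusted p = 0.00256), within rounding of the fold limit, and it was called there without DMSO replicate 2 (0.60) or 5 µM replicate 3 (0.63). The difference between 10 and 5 µM was 0.33 (edgeR adjusted p = 0.0433) and under the fold limit.

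SRF (chr6:43171299-43181507) is the factor on which many of these genes depend and, through its own CArG boxes, is itself a known SRF target. It was expressed at 45.5, 48.2 and 51.3 CPM in DMSO, 48.7, 48.1 and 45.7 CPM at 5 µM and 55.9, 43.3 and 43.6 CPM at 10 µM. The groups overlapped at both doses. Its log2 fold change was -0.03 at 5 µM (95% confidence interval -0.26 to 0.21, edgeR adjusted p = 0.924) and -0.02 at 10 µM (interval -0.26 to 0.22, adjusted p = 0.9). The intervals leave room for a change of up to about 0.26 on the log2 scale in either direction, and without 10 µM replicate 1 the value at 10 µM was -0.15 (adjusted p = 0.0532).

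ARC (chr8:142611044-142614472) had the largest rise of the 10 genes at both doses. It was expressed at 1.65, 1.01 and 1.30 CPM in DMSO, 6.77, 7.80 and 7.39 CPM at 5 µM and 34.9, 26.0 and 30.6 CPM at 10 µM. No library of one group reached another group. ARC rose 5.54-fold at 5 µM (log2 fold change 2.47, standard error 0.18, edgeR adjusted p = 4.76e-05) and 23.1-fold at 10 µM (log2 fold change 4.53, standard error 0.19, edgeR adjusted p = 3.05e-07). From 5 to 10 µM it rose 4.17-fold (edgeR adjusted p = 0.000114). With 49 to 82 counts in each DMSO library, its baseline was well above the floor. The log2 ratio of ARC to EGR1 per kilobase overlapped between DMSO and 10 µM, with a difference of 0.33 (exact permutation p = 0.5, two-sided).

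**Figure D4:**
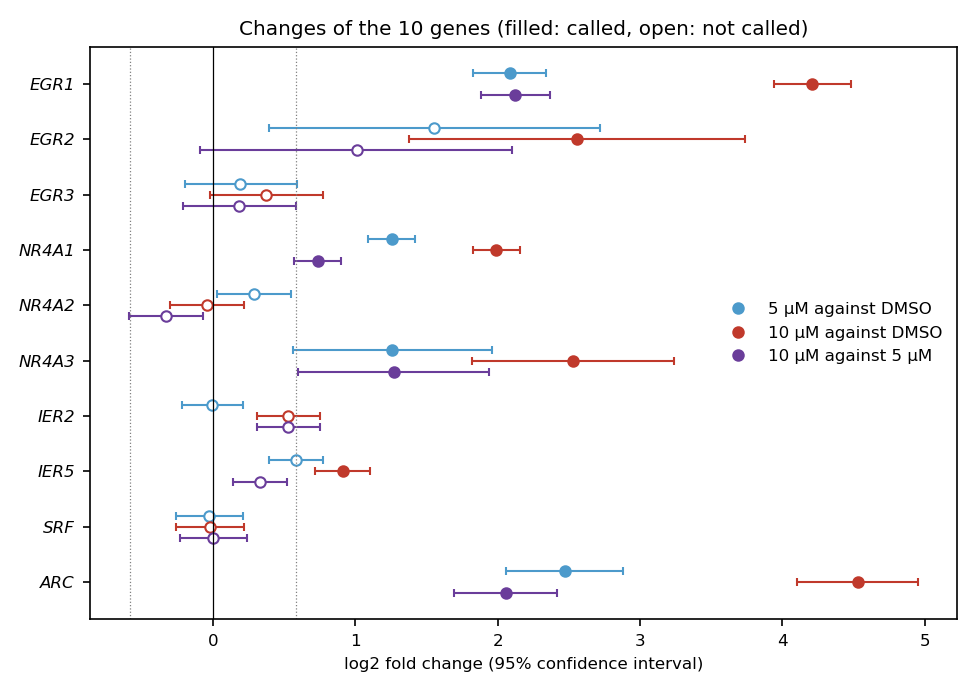
Log2 fold change of each gene with its 95% confidence interval for both doses against the vehicle and for the higher dose against the lower. Filled points were called, open points were not, and dotted lines mark a fold change of 1.5. ARC and EGR1 lie farthest to the right at 10 µM, at 4.53 and 4.21, and the intervals of SRF and EGR3 cross 0 in every comparison.

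The order of the levels changed with dose. Per kilobase, the DMSO order was IER2 (52.8 CPM per kb), IER5 (19.0), SRF (11.5), NR4A1 (8.55), NR4A2 (2.22), EGR1 (2.1), EGR3 (1.93), ARC (0.448), NR4A3 (0.170) and EGR2 (0.166). NR4A2, EGR1 and EGR3 overlapped as neighbors in that order, as did NR4A3 and EGR2, and the other neighbors did not overlap. At 10 µM EGR1 had moved to second place at 39.0 CPM per kb, overlapping IER5 (35.7), which overlapped NR4A1 (34.1). ARC had reached 10.4 CPM per kb and overlapped SRF (11.3).

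Genes that work with these factors were next examined from lists written with earlier results of these data known. The 5 tested genes on the list of EGR and NR4A partners were the corepressors NAB1 and NAB2, the receptors RXRA and RXRB, and EGR4, itself an EGR gene. At 5 µM, 0 were called by edgeR or DESeq2, with 0 at an unadjusted p under 0.05. There edgeR called 2.14% of all genes tested up and 2.72% down. At 10 µM 1 was called, upward, where 8.57% of all genes tested were. An unadjusted p under 0.05 gave 2 higher and 2 lower, and the share of all genes at that limit was not counted. On the adjusted p alone, 2 were higher at 10 µM and 1 lower, against 16.4% of all genes higher and 2947 of 16417 lower. RXRA was the lower gene (log2 fold change -0.34, edgeR adjusted p = 0.00402), and NAB2 was higher (0.26, adjusted p = 0.0493). The gene called, EGR4, lies under the 1 CPM asked of named genes and was chosen after its values were seen. It had 0, 2 and 0 counts in DMSO, 6, 0 and 14 at 5 µM and 42, 14 and 9 at 10 µM, and its call was lost without 10 µM replicate 1, 5 µM replicate 1 or any 1 of the DMSO libraries. Of 6 SRF cofactors, the ELK factors ELK1, ELK3 and ELK4 and the actin-sensing coactivators MKL1 and MKL2 were not called at either dose. On the adjusted p alone, 1 of the 6 was lower at each dose, against 954 of 16417 genes at 5 µM and 2947 at 10 µM. This was ELK3 (log2 fold change -0.27, edgeR adjusted p = 0.0442 at 5 µM, and -0.31, adjusted p = 0.00977 at 10 µM). At each dose 1 of the 6 was called up, against 2.14% of all genes at 5 µM and 8.57% at 10 µM. MYOCD, the muscle member of the coactivator family, was called at both doses from 4 to 11 counts a library in DMSO to 59 to 71 at 10 µM, and was likewise named after its values were seen. Its call at 5 µM was lost without 5 µM replicate 1 or 2 or DMSO replicate 2 or 3.

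Of 12 genes known as direct SRF targets, 2 were called up and 0 down at 5 µM by edgeR and by DESeq2, and 2 up and 1 down at 10 µM, with a median log2 fold change of 0.01 at 10 µM. Over all genes tested, 2.14% were called up and 2.72% down at 5 µM, and 8.57% up and 10.5% down at 10 µM, so that the 1 of 12 called down is near the background. In edgeR at an unadjusted p under 0.05, 2 were higher and 1 lower at 5 µM, and 3 higher and 3 lower at 10 µM. The share of all genes at that limit was not counted. The smooth muscle actin gene ACTA2 had 21.1 ± 1.52 CPM in DMSO and 64.7 ± 7.60 CPM after 10 µM (SD, n = 3 each). It rose by 1.62 on the log2 scale (standard error 0.10, edgeR adjusted p = 2.88e-06). FHL2, a LIM domain cofactor, rose by 1.44 on the same scale. VCL, which encodes the adhesion protein vinculin, fell from 280.6 ± 6.71 CPM to 138.9 ± 29.8 CPM (SD, n = 3 each; log2 fold change -1.01, edgeR adjusted p = 0.000355). The cytoplasmic actins ACTB and ACTG1 had log2 fold changes of 0.05 and -0.02.

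Of the AP-1 immediate early genes and ATF3, 2 of 6 were called up at 5 µM (2.14% of all genes tested) and 4 of 6 at 10 µM (8.57% of all genes). At 10 µM the log2 fold changes against the same DMSO libraries were 5.00 for the stress factor ATF3, 2.32 for FOSB, 2.03 for FOS and 1.32 for JUN. Of 32 further immediate early genes tested from a list of 33, 2 were called up and 1 down at 5 µM, and 15 up and 1 down at 10 µM, with a median log2 fold change of 0.10 and 0.62. The shares over all genes are those given for the SRF targets, and the downward count is near that background at 5 µM and below it at 10 µM. With no fold limit, 9 of the 32 were called up and 3 down at 5 µM, against 722 (4.4%) up and 954 down of all 16417 genes tested. At a fold limit of 2, 8 of the 32 were called up at 10 µM, against 641 of the 16417 genes. The largest rises at 10 µM were those of the antiproliferative gene BTG2 (log2 fold change 2.26), the kinase PLK3 (1.91) and the matricellular genes CTGF (1.88) and CYR61 (1.5). BTG2 took most of its change by 5 µM, where its log2 fold change was 1.79, whereas that of CYR61 was 0.27 (edgeR adjusted p = 0.0621). The kinase gene PIM1 was the gene called lower at both doses. Its log2 fold change was -1.0 at 5 µM (edgeR adjusted p = 0.00134) and -1.15 at 10 µM (adjusted p = 0.000138).

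**Figure D5:**
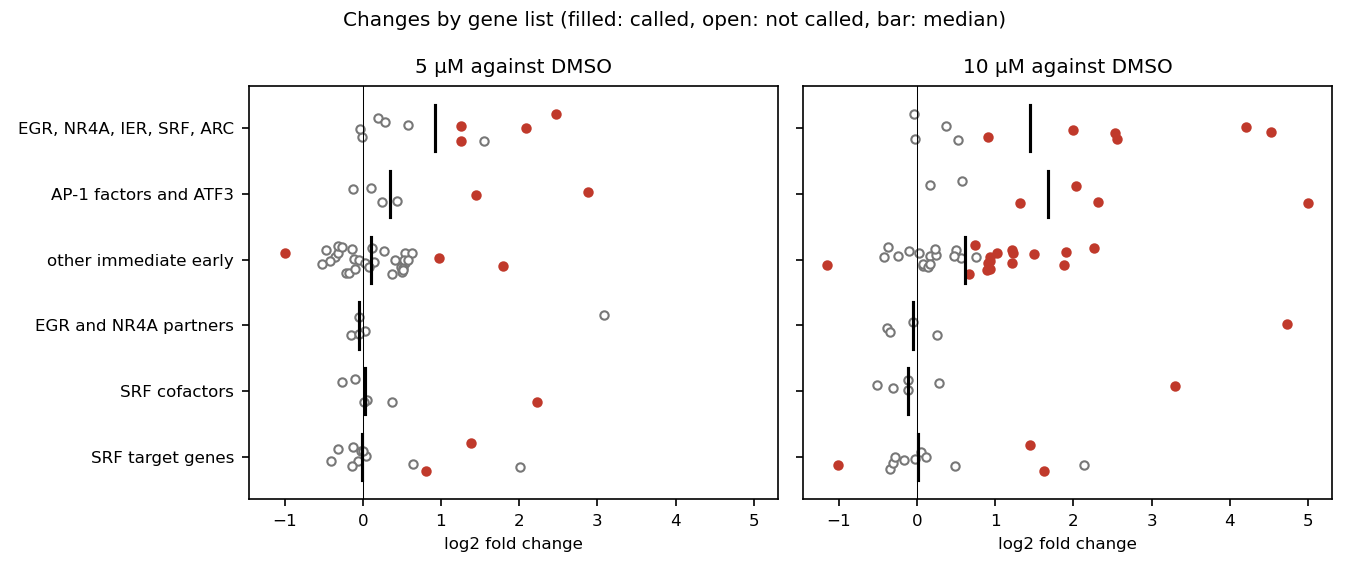
Log2 fold change of each tested gene by list at 5 µM (left) and 10 µM (right) against DMSO. Filled red points were called, open points were not, and black bars are medians. The medians of the 10 genes, 0.92 and 1.45, lie to the right of 0 at both doses, and those of the SRF cofactors and SRF target genes lie near 0.

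The genes whose pattern was most like that of each member were found among 13678 tested genes averaging 1 CPM or more, by the root mean squared difference over 9 libraries of log2(CPM + 0.5) centred on the DMSO mean. For EGR1 the nearest gene was ARC (0.25 log2 units) and the next IL24 (0.31), and for ARC they were EGR1 (0.25) and IL24 (0.28). IL24 had means of 15.4, 86.5 and 310.7 CPM in DMSO, 5 µM and 10 µM. The nearest to NR4A1 were SLAMF7 (0.11) and KIAA1324 (0.13), to NR4A3 HIST1H4H (0.20) and SERPINB2 (0.23), and to EGR2 TRIM53AP (0.30) and LCP1 (0.31). The added 0.5 CPM shrinks the changes of genes near that level, so these distances can understate differences in fold change. In DMSO the means were 0.259 CPM for HIST1H4H, 0.291 for LCP1 and 1.02 for KIAA1324. The members with flat or small changes had nearer neighbors, which were CNST and KDM6A for EGR3, STC1 and KIAA1279 for NR4A2, SAT2 and MAD2L1BP for IER2, ADI1 for IER5, and ZYX and MAP2K7 for SRF, all within 0.07.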

How the data were processed

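A375 mRNA was sequenced in 9 libraries, grouped by the labels into DMSO, 5 µM and 10 µM TP-472 (3 each). The authors deposited expected counts per gene symbol, not scaled to library size. The submitters' processing notes name Bowtie2 2.1.0, RSEM 1.2.15 and the build hg38. Their roles, the annotation and any filters are not stated there. Between 10.6% and 13.8% of values in a library were not whole, and all were rounded.

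Tests ran in edgeR 4.0.16 under R 4.3.3 (TMM factors, filterByExpr at its defaults, quasi-likelihood F test, all 3 groups in 1 fit). Standard errors come from each log2 fold change and its F value (the change over the root of F), and intervals are 95%. The procedure was run on simulated counts drawn with the same spread in all groups. That run cannot check the procedure where the spread differs between groups, as it did here. DESeq2 1.42.0 served as an alternative, with other scaling factors, filters, thresholds, libraries left out and a replicate block. Tables were made with Python 3.11.15 (pandas 2.3.3, scipy 1.17.1). GENCODE 29 gave coordinates and transcript lengths, and RefSeq the sequences. The floor of 3 counts covers counting error only. Intervals and p-values measure the spread between these libraries, pooled over the 3 groups, and that spread may be technical. The groups were not alike in it. Between libraries of a group, the chi-square per degree of freedom against counting error alone was 5.45 to 12.3 in DMSO. It was 9.88 to 59.3 at 5 µM and 47 to 319 at 10 µM.

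The members, lists and comparisons were chosen with earlier results of these data known. All 10 members were named. From each other list, the rule took genes called at 10 µM with the 4 largest changes in each direction at a mean of at least 1 CPM, and for each member the 2 genes most like it. A gene that this rule named is not reported here.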

Additional observations from a re-analysis of the deposited data

How the results depend on the processing

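Under the 19 alternatives, the number of members called in each comparison stayed within 1.5 times the value reported. With 1 library left out in turn, 3 to 5 members were called up at 5 µM, 6 to 7 at 10 µM and 3 to 4 at 10 against 5 µM, with 0 called down throughout. The log2 fold changes of EGR1 (2.01 to 2.22 at 5 µM and 4.13 to 4.34 at 10 µM), NR4A1 (1.24 to 1.29 and 1.95 to 2.04) and ARC (2.30 to 2.67 and 4.36 to 4.73) stayed called in each of these fits. Signs turned only for values near 0. With upper-quartile factors NR4A2 at 10 µM was 0.00, IER2 at 5 µM 0.01 and SRF at 10 µM 0.02. With at least 1 CPM in at least 3 libraries, IER2 at 5 µM and SRF at 10 µM were 0.00. The SRF difference between doses was -0.01 with no filter and 0.00 with the replicate block. With 1 library left out in turn, IER2 at 5 µM ran from -0.03 to 0.03, and SRF from -0.07 to 0.02 at 5 µM, from -0.15 to 0.04 at 10 µM and from -0.13 to 0.06 between doses. Replicate numbers showed no clear pairing of the libraries. The correlation of deviations was at most 0.0987 in same-numbered pairs and at most 0.0793 in the others. With 3 libraries a group, this cannot decide whether they were paired. With the replicate block, 3, 6 and 3 members were called up, and the calls lost were those of NR4A3 at 5 µM (log2 fold change 1.27, edgeR adjusted p = 0.0574) and at 10 against 5 µM (1.23, adjusted p = 0.065). With only the compared groups fitted, 5, 6 and 3 were called up. EGR2 at 5 µM was gained, and NR4A3 at 10 against 5 µM was lost (1.29, edgeR adjusted p = 0.111). In these fits the edgeR adjusted p of NR4A2 at 5 µM was 0.0446. Those of IER2 and IER5 at 10 against 5 µM were 0.063 and 0.152. Leaving out rRNA genes, an alternative chosen after seeing the data, gave 4, 6 and 4. Over all genes tested, 352 were called up at 5 µM and 233 at 10 against 5 µM. With 1 library left out these ran from 197 to 575 and from 118 to 320. The first moved by over 1.5 times without DMSO replicate 1 (218), 2 (197) or 3 (203) and without 10 µM replicate 1 (575), and the second without DMSO replicate 2 (155) and without 5 µM replicate 1 (118), 2 (121) or 3 (119). Of the genes called lower, 447 at 5 µM became 283 without DMSO replicate 2 and 285 without DMSO replicate 3, and 425 at 10 against 5 µM became 272, 258 and 270 without 5 µM replicates 1, 2 and 3. Fitting the compared groups alone gave 591 up and 729 down at 5 µM and 101 up and 165 down at 10 against 5 µM, where DESeq2 gave 418 up. With no fold limit, 722 up and 954 down were called at 5 µM, 2687 and 2947 at 10 µM, and 471 and 908 between doses, and at a fold limit of 2 these were 185 and 132, 641 and 755, and 88 and 119. The low counts of EGR2, EGR4, MYOCD and NR4A3 in DMSO limit the precision of their changes.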
